A study of Mus musculus with 6 samples.

Results

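Spata and Tex genes are mouse genes named because they were found in spermatogenesis (Spata, spermatogenesis associated) or in testis (Tex, testis expressed). On the array used here, every probe whose platform symbol, or the current symbol of its gene, was Spata or Tex followed by a number was taken, and Tex15 was left out. This gave 56 of 23473 probes. They represent 55 genes, 23 of them Spata and 32 Tex, with Spata20 the only gene read by 2 probes. The platform symbol itself named 30 of the probes, and 26 carried an older clone name whose gene is now called Spata or Tex. Another 18 probes belong to genes that hold such a name only as an alternative, and these were not counted.

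The samples were 6 arrays of RNA from testis of C57/BL6 mice, 2 in each of 3 groups. The MVH group is RNA recovered from testicular lysate with an antibody against MVH (DDX4), the IgG group is RNA recovered in the same way with normal rabbit IgG, and the third group, WCE in the labels, is total RNA taken with no antibody. Testes were dispersed through needles, so that the lysate held whatever cell types came free, and the labels give neither the age of the mice nor a genotype or treatment. Nothing in them ties array 1 or 2 of a group to its own animal. The p-values therefore reflect only how far these samples lay apart, a spread that may be technical. In such bulk samples fewer cells of a type and less RNA per cell cannot be told apart.

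As background, the shared names mark where these genes were found and do not mean a common ancestor or function. Some members act in meiosis or in the bridges that join dividing germ cells, some build the acrosome, neck, midpiece or flagellum of sperm, some are used in many tissues, and many are little studied. MVH is an RNA helicase of germ cells that gathers in the cytoplasmic granules where germ cells handle RNA. The comparison of its precipitate with IgG asks which RNAs came down with the antibody beyond what beads and IgG bring down. Each array was scaled to its own median, so that every value is relative to the other RNAs on that array and no amount of RNA was measured.

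Each array listed 22090 to 22965 probes, and the log2 values of the arrays of 1 group correlated at 0.978 to 0.988 across 21241 probes. Intensities below are scaled to an array median of 30. Most member probes were bright. In both total RNA arrays 49 of the 55 member probes listed on all arrays lay above the median (89.1%, against 50.2% of all probes tested), and 23 lay in the brightest 10% of the array (41.8%, against 9.95%). Brightness depends on the probe as well as on the RNA, so it does not rank the genes by abundance. Among these 55 probes the values in total RNA ran from 4.50 for Tex9 to 31995 for Spata33, a regulator of calcineurin in the sperm midpiece. Spata13, which encodes a guanine nucleotide exchange factor of the cytoskeleton, was blank on MVH array 1 and on IgG array 2 and read 1.80 to 4.90 on the others, so it was not tested. Germ cell markers were present, with summed intensities of 357400 and 395200 in total RNA for 11 elongating spermatid genes.

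Against the IgG precipitate, 11 member probes stood higher in the MVH precipitate and 2 stood lower, of 55 tested with limma. They were 20.0% and 3.64% of the members, beside 3.82% and 4.15% of all 21574 probes (7.97% in either direction). The higher genes were Spata20, Spata7, Tex44, Spata18, Tex35, Tex33, Spata1, Spata32, Tex50, Tex52 and Tex26, with log2 differences of 1.22 to 2.43. The lower genes were Tex101 and Tex19.1. At an unadjusted p under 0.05 limma gave 21 higher and 5 lower members (47.3% of them), beside 2723 higher and 2771 lower of all probes (25.5%), the share against which the unadjusted counts of the groups below are to be read. The median of the members was 0.56, against 0.07 for all probes, and 42 of the 55 values were positive. Members also spread more widely, with an SD of the log2 differences of 0.91 against 0.70 over all probes, while the median standard error was 0.31 in both. The Spata probes had a median of 0.62 (5 higher, 0 lower of 23, with 10 and 3 at an unadjusted p under 0.05 by limma) and the Tex probes one of 0.53 (6 higher, 2 lower of 32). Of the 55 members, 30 were higher and 8 lower with no overlap between the arrays of the 2 groups. The same held for 6451 and 5131 of all 21574 probes (29.9% and 23.8%).

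**Figure D1:**
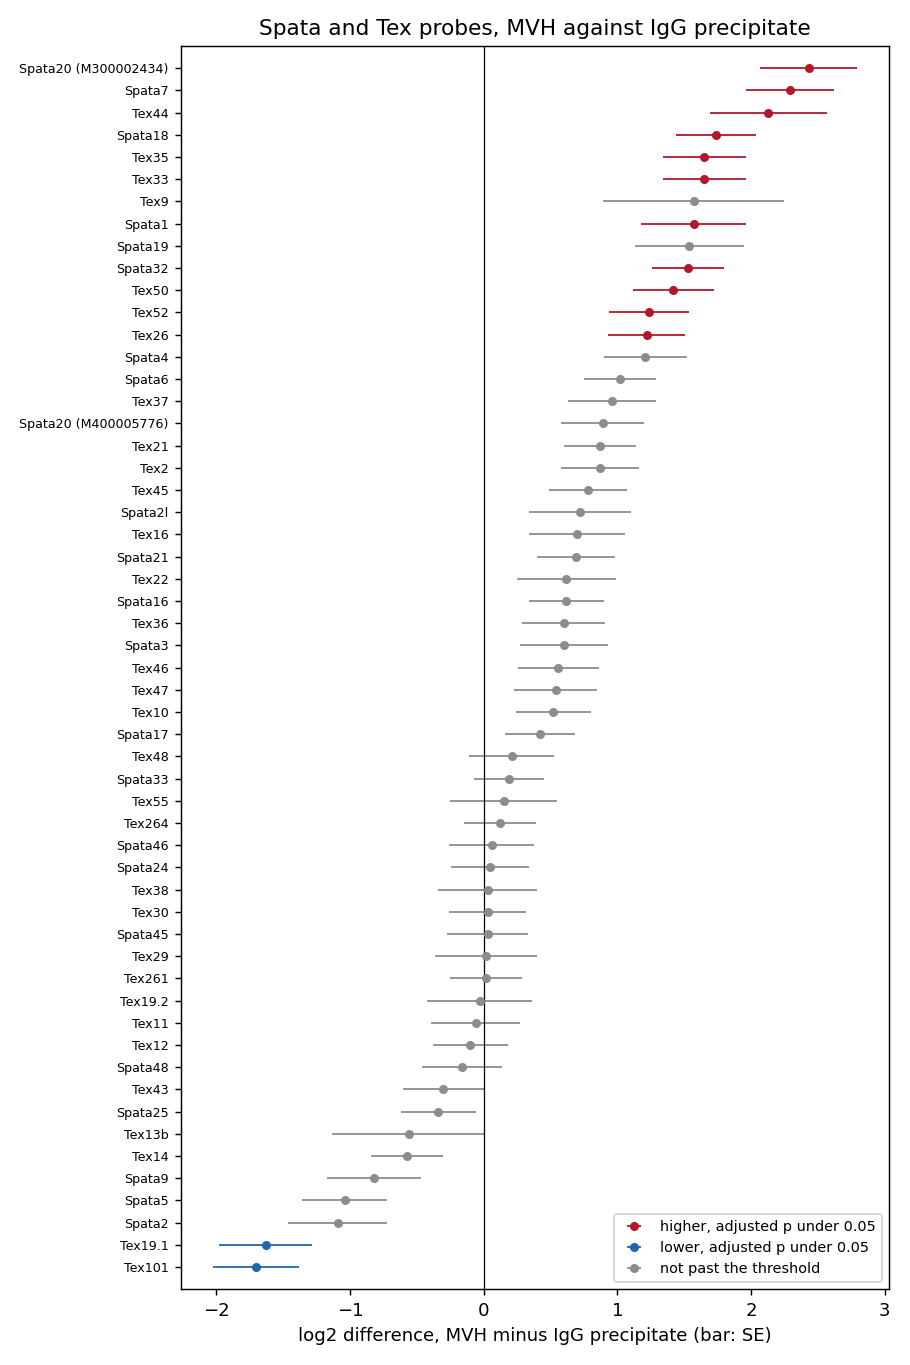
Log2 difference between the MVH and the IgG precipitate for the 55 Spata and Tex probes tested (x axis), ordered by size, with the standard error of the fit as bars (2 arrays per group). Coloured points passed an adjusted p of 0.05: 11 probes lie on the right, between 1.22 and 2.43, and 2 on the left, Tex101 at -1.70 and Tex19.1 at -1.63.

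These calls rested on the spread shared by all 6 arrays: 0 members passed in a fit of just the MVH and IgG arrays (4 arrays), or without total RNA 1, total RNA 2 or MVH array 2, and Spata7 alone passed without MVH array 1. In the fit of 4 arrays 0 of all probes passed as well. Without IgG array 1 the median of the members was 0.51, where that of all probes was 0.12. Without IgG array 2 these medians were 0.49 and 0.01. With no centring of the arrays 10 members were higher and 0 lower, beside 702 and 121 of all probes. The median of the members was then 0.82, where that of all probes was 0.34.

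Among the members placed in none of the role groups below, Spata20, a gene of spermatids whose protein resembles thioredoxins, had the largest difference. Its brighter probe, M300002434, read 759 and 636 on the MVH arrays, 181 and 91.9 on the IgG arrays and 354 and 312 on those of total RNA. Both MVH arrays thus lay above all others, and both IgG arrays below all others. The difference from IgG was 5.38-fold (2.43 ± 0.36 on the log2 scale, SE, 2 arrays per group, adjusted p from limma = 0.0172). The other probe of Spata20, M400005776, was dimmer, at 47.8 and 51.9 on the MVH arrays, 31.5 and 23.1 on the IgG arrays and 47.8 and 33.0 on those of total RNA. It differed the same way by 0.89 ± 0.31 and did not pass (limma adjusted p = 0.111), so the probes of this gene give different sizes.

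Tex44 read 382 and 247 in the MVH precipitates and 304 and 355 in total RNA, but 111 and 44.3 with IgG. The MVH and total RNA arrays overlapped, and the IgG arrays were apart and unlike each other. The difference from IgG was 4.38-fold (2.13 ± 0.44 on the log2 scale, SE, 2 arrays per group, adjusted p from limma = 0.0284). Tex35 showed the same layout at a brighter level, at 5322 and 5797 on the MVH arrays, 1422 and 2215 on the IgG arrays and 4824 and 6149 on those of total RNA. Tex33 read 1162 and 1657 on the MVH arrays, 424 and 458 on the IgG arrays and 820 and 1208 on those of total RNA. Their differences from IgG were 1.65 ± 0.31 each (limma adjusted p = 0.0234 and 0.0235, n = 2 per group).

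Spata32 differed little between arrays of a group, at 3270 and 3302 on the MVH arrays, 1030 and 1257 on the IgG arrays and 2287 and 2559 on those of total RNA. It was 2.89-fold higher than with IgG (1.53 ± 0.27 on the log2 scale, SE, 2 arrays per group, adjusted p from limma = 0.0201). Tex50 read 199 and 279 on the MVH arrays, 80.8 and 95.6 on the IgG arrays and 259 and 212 on those of total RNA. Tex52 read 460 and 714 on the MVH arrays, 248.8 and 238 on the IgG arrays and 375 and 409 on those of total RNA. Tex26 read 314 and 329 on the MVH arrays, 167 and 114 on the IgG arrays and 259 and 288 on those of total RNA. In all 3 genes the MVH arrays cleared the IgG arrays, and only for Tex50 did they overlap with total RNA. The differences from IgG were 1.42, 1.24 and 1.22 (limma adjusted p = 0.0294, 0.0413 and 0.0396).

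**Figure D2:**
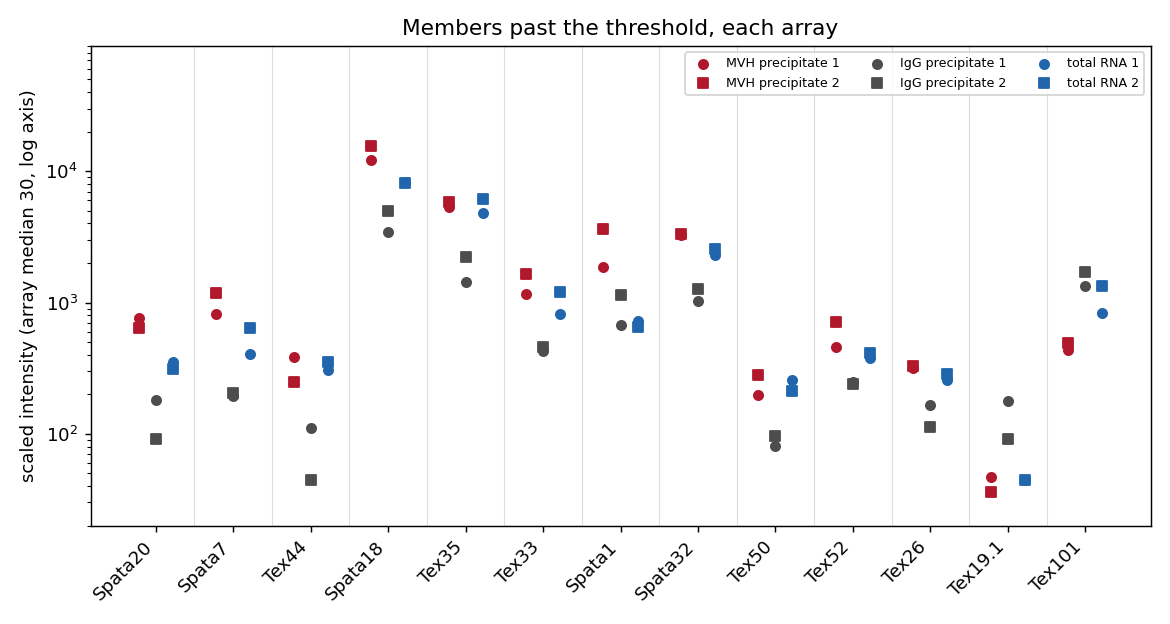
Scaled intensity on each of the 6 arrays (y axis, log scale, array median 30) for the 13 member probes past the threshold between the precipitates, with circles for array 1 and squares for array 2 of each group. In the 11 genes on the left the IgG arrays (grey) lie below the MVH arrays (red), whereas in Tex19.1 and Tex101 they lie above them.

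Of the 24 probes placed in none of the role groups below, 8 were higher and 0 lower, with a median of 0.74. This group is what the lists left over, so it can hold genes with a known role. At an unadjusted p under 0.05 limma gave 13 and 1. Spata4, among the brightest probes of testis RNA, lay just outside the threshold at 1.21 ± 0.31 (limma adjusted p = 0.0507, n = 2 per group), at 30783 and 45056 with MVH against 13534 and 19221 with IgG. Spata24 and Spata45 were also very bright and differed by 0.05 and 0.03. The lowest value in this group was that of Spata9, at -0.82 ± 0.35 (limma adjusted p = 0.181, n = 2 per group).

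Among genes of the flagellum, neck and sperm mitochondria, 1 of 9 was higher and 0 were lower, with a median of 0.42 (4 and 0 by limma at an unadjusted p under 0.05). The higher gene was Spata18, also called Mieap, which takes part in the quality control of mitochondria. It read 12199 and 15532 on the MVH arrays, 3414 and 4947 on the IgG arrays and 8319 and 8127 on those of total RNA, and its difference from IgG was 3.35-fold (1.74 ± 0.30 on the log2 scale, SE, 2 arrays per group, adjusted p from limma = 0.0192). Spata19, which mitochondria of the sperm midpiece need for their arrangement, read 3590 and 8273 on the MVH arrays, 2062 and 1702 on the IgG arrays and 3502 and 4836 on those of total RNA. The MVH arrays of Spata19 differed from each other, and its 1.54 ± 0.41 did not pass (limma adjusted p = 0.0529). Spata6, needed to join the sperm head to its tail, differed by 1.02 ± 0.27 (limma adjusted p = 0.0528, n = 2 per group). Tex37, a protein of the axonemal microtubules of sperm, differed by 0.96 (limma adjusted p = 0.108), Spata17 by 0.42, Spata33 by 0.19 and Tex55 by 0.15, and Tex43 and Spata48, also found there, by -0.30 and -0.16.

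Of 6 genes of the acrosome, sperm head and germ cell surface, 1 was higher and 1 lower, with a median of 0.34. Spata1 was the higher one, at 1849 and 3612 on the MVH arrays, 669 and 1136 on the IgG arrays and 719 and 649 on those of total RNA. Here the IgG arrays lay about where total RNA did, and both MVH arrays stood above all others (1.57 ± 0.39 on the log2 scale against IgG, SE, 2 arrays per group, adjusted p from limma = 0.0455). Tex101, a glycoprotein anchored in the germ cell membrane that sperm need for their passage to the egg, was the lower one. It read 437 and 493 on the MVH arrays, 1326 and 1704 on the IgG arrays and 835 and 1337 on those of total RNA. The difference was -1.70 ± 0.32 (limma adjusted p = 0.0228, n = 2 per group), and both MVH arrays lay below all others. Spata16, which acrosome formation requires, differed by 0.62, Tex22 by 0.62, Spata46 by 0.06 and Tex38 by 0.03, none past the threshold.

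With the arrays centred on their medians, all 6 members of meiosis, chromosomes and germ cell bridges had negative values, from -1.63 to -0.03, and 1 of them was lower. This was Tex19.1, which protects germ cells against retrotransposons. It read 46.7 and 36.1 on the MVH arrays, 176 and 91.4 on the IgG arrays and 44.8 and 44.1 on those of total RNA, and its difference from IgG was -1.63 ± 0.35 (limma adjusted p = 0.0315, n = 2 per group). The MVH arrays lay at the level of total RNA, and the IgG arrays stood above both. Its close relative Tex19.2 differed by -0.03 ± 0.39, and whether each probe reads only its own copy was not tested. Tex14, which keeps the bridges between germ cells open, read 273 and 295 with MVH and 405 and 438 with IgG (-0.57 ± 0.27, limma adjusted p = 0.231). Tex12, of the central element of the synaptonemal complex, and Tex11, an X-linked gene of meiotic recombination, differed by -0.10 and -0.06. Tex13b had a value of -0.56 with a standard error of 0.57, and its IgG arrays read 24.3 and 103. At an unadjusted p under 0.05 limma gave 0 higher and 1 lower in this group (16.7%), a smaller share than that of all probes. In 2 of the 6 the MVH arrays lay below the IgG arrays with no overlap, beside 23.8% of all probes. With no centring every value rises by the same step, which took the median of all probes from 0.07 to 0.34. Tex14 then stood at -0.31, and Tex19.1 at -1.36 did not pass (limma adjusted p = 0.118). Signs of values near 0 thus rest on the centring.

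Of 10 tested members also used in many other tissues, 1 was higher and 0 lower, with a median of 0.32 (3 and 2 by limma at an unadjusted p under 0.05). Spata7, a ciliary protein best known from the photoreceptors of the retina, read 814 and 1178 on the MVH arrays, 195 and 205 on the IgG arrays and 406 and 643 on those of total RNA. Both MVH arrays lay above all others (4.90-fold over IgG, 2.29 ± 0.33 on the log2 scale, SE, 2 arrays per group, adjusted p from limma = 0.0166). Spata5, an AAA ATPase of ribosome maturation, and Spata2, an adaptor of the deubiquitinase CYLD, had the lowest values, at -1.04 ± 0.32 and -1.09 ± 0.37 (limma adjusted p = 0.0806 and 0.104). Tex2, of lipid transfer at the endoplasmic reticulum, differed by 0.87, Tex10 by 0.52, and Tex264, a receptor for the autophagy of that organelle, by 0.12. Tex9 differed by 1.57 ± 0.68, but was dim on all arrays, at 21.5 and 4.70 with MVH against 5.70 and 2.02 with IgG.

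**Figure D3:**
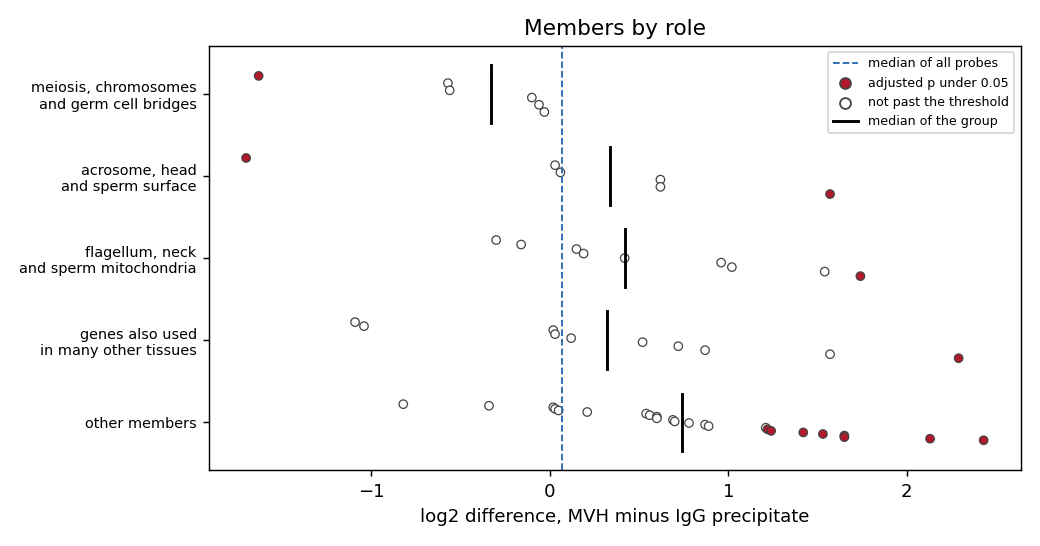
Log2 difference between the MVH and the IgG precipitate (x axis) of each tested member probe, grouped by the known role of its gene, with filled points for an adjusted p under 0.05 and a black bar at the median of each group. The medians run from -0.33 for the 6 meiosis and bridge genes to 0.74 for the 24 probes of other members, and the dashed line marks the median of all probes, 0.07.

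Each precipitate was then set against total RNA. The 3 contrasts share arrays, so the values below are given side by side and are not independent of those above. Between the MVH precipitate and total RNA, 0 of 55 members passed in either direction with limma, beside 0.00459% higher and 0.00918% lower of all probes (0.0138% together). At an unadjusted p under 0.05 limma gave 6 higher and 1 lower (12.7%), beside 987 and 960 of all 21793 probes (8.93%). Of the 55 members, 18 were higher and 11 lower with no overlap between the arrays. The same held for 4066 and 4718 of all 21793 probes (18.7% and 21.6%). The median was 0.03, against -0.02 for all probes. Between the IgG precipitate and total RNA, 0 of 55 passed with limma as well, beside 0.00934% of all probes. At an unadjusted p under 0.05 limma gave 5 higher and 19 lower (43.6%), beside 2002 and 1898 of all 21413 probes (18.2%). There the median of the members was -0.41, against -0.10 for all probes, with 41 values negative and 14 positive. The IgG arrays lay below both total RNA arrays for 30 of the 55 members and above them for 6 of the 55. The same held for 6334 and 4278 of all 21413 probes (29.6% and 20%). These counts of 0 depended on the setting. Without the dimmest 25% of probes 2 members were higher and 8 lower with IgG than in total RNA, with an offset of 4 before log2 the counts were 1 and 10, and under a variance trend 2 and 10. Calls grew over the whole array too, to 773 higher and 410 lower, 666 and 421, and 798 and 455 of all probes. Under each of those settings 1 member, Spata1, was higher with MVH than in total RNA, as were 100, 72 and 132 of all probes.

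For the 11 genes higher with MVH than with IgG, the value against total RNA ranged from -0.10 to 1.92 for the MVH precipitate, with a median of 0.48, and from -2.23 to 0.35 for the IgG precipitate, with a median of -1.18. The genes thus did not all lie alike around total RNA. Spata1 was at 1.92 ± 0.39 with MVH and 0.35 ± 0.39 with IgG. Spata20 was at 1.06 and -1.36 (brighter probe), Spata7 at 0.94 and -1.35, and Spata18 at 0.74 and -1.0. Tex44 was at -0.10 and -2.23, Tex35 at 0.03 and -1.62, and Tex50 at 0.01 and -1.41, so that in these 3 genes MVH stood at the level of total RNA and IgG below it. In 7 of the 11 genes both MVH arrays were above all 4 other arrays.

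Over all members, both MVH arrays were above all 4 other arrays for 15 of 55 probes (27.3%) and below them for 3 (5.45%), beside 11.4% and 11.5% of all probes. Besides the 7 just counted, the 15 were Spata4, Spata6, Spata16, Spata21, Tex2, Tex10, Tex21 and Tex47. The 3 below were Tex101, Spata5 and Tex43. Those below numbered 1 with no centring. Leaving out an array can only keep or raise this count, so the values that follow test nothing. They were 5 without MVH array 1 or total RNA 1 and 6 without MVH array 2. Tex11 was high in both precipitates, at 1.14 ± 0.33 with MVH and 1.21 ± 0.33 with IgG relative to total RNA. It read 26.6 and 46.7, 32.6 and 41.7, and 15.1 and 16.9 in the 3 groups, and did not pass in either comparison (limma adjusted p = 0.338 and 0.115). Tex30 had the same layout, at 2759 and 3861 with MVH and 3186 and 3228 with IgG against 1733 and 2112 in total RNA, with differences of 0.77 and 0.75 that did not pass (limma adjusted p = 0.466 and 0.221). Tex36 lay lower in both precipitates than in total RNA, at -0.65 with MVH and -1.26 with IgG (limma adjusted p = 0.595 and 0.0936), and Tex48 at -0.54 and -0.75 (limma adjusted p = 0.718 and 0.268).

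**Figure D4:**
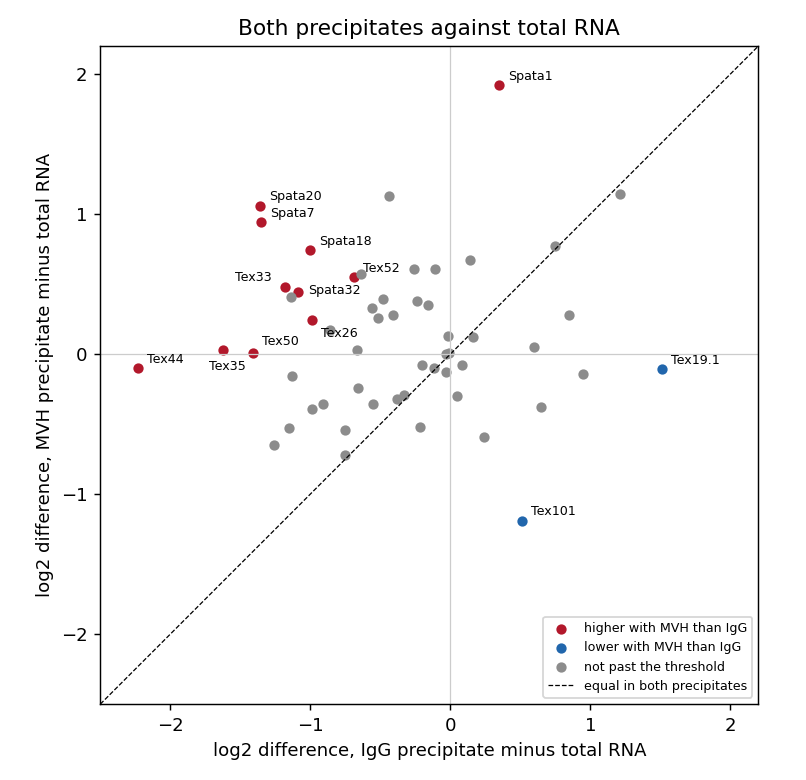
Log2 difference from total RNA of each of the 55 member probes in the IgG precipitate (x axis) and in the MVH precipitate (y axis), with the 13 probes that differed between the precipitates in colour and named. Both axes use the same total RNA arrays, so the points are shown side by side only. Tex44, Tex35 and Tex50 lie near 0 on the y axis and below -1.4 on the x axis, Spata1 lies high on the y axis alone, and Tex19.1 lies near 0 on the y axis.

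Markers of cell types moved between the same arrays. The counts of markers called higher or lower with MVH than with IgG stand beside 3.82% and 4.15% of all probes. The summed intensity of 11 round spermatid genes was 67740 and 89860 on the MVH arrays, 36200 and 39320 on the IgG arrays and 49810 and 61870 on those of total RNA, and 6 of the 11 were higher with MVH than with IgG. For 11 elongating spermatid genes it was 309900 and 401400, 277500 and 380800, and 357400 and 395200, with 2 higher. In that list Prm2 and Tnp1 both read the highest value of the array on each total RNA array (74564 and 77410), so its sums have a ceiling there. Spermatogonial genes, of which 2 of 12 probes were blank on at least 1 array, had 1 of 10 higher and 3 lower. They summed to 3259 and 2952 on the MVH arrays, 9608 and 6545 on the IgG arrays and 3954 and 4217 on those of total RNA. Of the 10 values between the precipitates 5 were positive and 5 negative. Nanos3 alone made up 1530.5 and 1249.7 of the sums with MVH and 6038 and 3857 of those with IgG. Spermatocyte genes summed to 43700 and 53180, 43290 and 43340, and 36140 and 47850, with 1 of 12 higher and 1 lower. Ldhc alone made up 41887 and 50612 of the sums with MVH and 40786 and 41255 of those with IgG.

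Somatic markers gave 2062 and 2530 on the MVH arrays, 5989 and 4273 on the IgG arrays and 1978 and 2826 on those of total RNA for 7 Leydig cell genes, of which 4 were lower with MVH. Fdx1 supplied 1549 and 2036 of the MVH sums, 2986 and 2385 of the IgG sums, and 1316 and 1692 of the total RNA sums. This gene was not called between the precipitates, at -0.59 (limma adjusted p = 0.257). Between the MVH precipitate and total RNA, 5 of the 7 Leydig cell values were negative and 2 positive, with a median of -0.51. Those 5 lay lower with no overlap between the arrays, and 0 of the 7 passed with limma. Of 12 Sertoli cell genes 2 were lower with MVH than with IgG. Their sums were 5030 and 4814, 10600 and 8154, and 6534 and 7184. Of their 12 values between the precipitates 7 were positive and 5 negative, with a median of 0.04. Clu alone made up 3278 and 3367 of those sums with MVH and 5907 and 5264 of those with IgG. Peritubular and vascular genes, with 2 of 9 probes blank on some array, summed to 564 and 372, 3174 and 1483, and 432 and 530, and 2 of 7 were lower. Acta2 alone made up 502 and 295 of those sums with MVH and 3037 and 1388 with IgG. Macrophage and blood genes were dim throughout (82.9 to 119) and 0 of 5 passed with limma (1 higher at an unadjusted p under 0.05). No marker was listed at 0. The part of these shifts in the members' values was not tested.

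Genes whose proteins are known to work with a Spata or Tex protein were examined beside the members. The list also held partners of proteins with no member probe here, such as the genes of the sperm calcium channel. Of 37 tested, 3 were higher and 1 lower with MVH than with IgG, beside 3.82% and 4.15% of all probes. Their median was 0.00. At an unadjusted p under 0.05 limma gave 9 higher and 3 lower (32.4%), beside 25.5% of all probes. Catsper4, of the sperm calcium channel, was higher by 2.12, Syce1, like Tex12 a protein of the synaptonemal complex, by 1.28, and Zpbp, an acrosomal protein, by 1.14. Pelp1, which forms a complex with Tex10, was lower at -1.14 (limma adjusted p = 0.046). The next by size, none past the threshold, were Cep55, which Tex14 holds back from cutting the germ cell bridges, at 1.20 (limma adjusted p = 0.0516), and Adam3, the sperm surface protein whose maturation needs Tex101, at 1.15 (limma adjusted p = 0.0584). They were followed by Gabarapl2, of autophagy, at -1.08 and Gopc, of Golgi transport to the acrosome, at 0.99 (limma adjusted p = 0.0655 and 0.0512). Syce2, also of the synaptonemal complex, differed by -0.36 (limma adjusted p = 0.458).

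Promoters of the members are shown because 11 of these genes stood higher together. They come from RefSeq (GRCm38.p6) and describe the genes, not the precipitated RNA. Windows of 300 bases, from 250 before the start to 50 after it, were at hand for 49 member genes (61 windows) and were searched on both strands for TGACG, the core of the cAMP response element through which CREM switches on genes in spermatids, and for its full palindrome TGACGTCA, which holds the core on each strand. The core was found in 14 of the 61 windows (23.0%), against 20.8% of all 32851 windows, and the palindrome in 1 of the 61, against 1.79%. By gene, 5 of the 11 genes higher with MVH had the core (45.5%), as did 12 of all 49 members with a window (24.5%) and 7 of the 38 members not among the 11 (18.4%), against 23.0% of all genes. A match describes the letters and no site of binding. One window of each of the 5 genes is printed below from 150 bases before the start to the first 10 bases of the gene, with the core (TGACG, or CGTCA where it lies on the other strand) or the palindrome in capitals.
Spata7, chr12:98627992-98628151, + strand: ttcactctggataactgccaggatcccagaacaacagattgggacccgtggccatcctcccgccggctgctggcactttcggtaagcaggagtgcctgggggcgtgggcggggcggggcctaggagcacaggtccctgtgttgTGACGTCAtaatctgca
Spata18, chr5:73651230-73651389, + strand: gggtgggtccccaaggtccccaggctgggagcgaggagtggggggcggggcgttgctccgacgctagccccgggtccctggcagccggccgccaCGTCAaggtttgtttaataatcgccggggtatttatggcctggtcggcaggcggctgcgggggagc
Spata32, chr11:103218423-103218582, - strand: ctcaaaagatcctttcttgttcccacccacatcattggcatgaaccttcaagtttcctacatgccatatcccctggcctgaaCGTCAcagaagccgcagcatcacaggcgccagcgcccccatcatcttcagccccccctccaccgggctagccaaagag
Tex50, chr1:161159305-161159464, - strand: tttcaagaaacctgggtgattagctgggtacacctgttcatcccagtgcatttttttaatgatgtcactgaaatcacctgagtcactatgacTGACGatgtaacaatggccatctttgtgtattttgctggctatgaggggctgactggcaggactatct
Spata1, chr3:146499784-146499943, - strand: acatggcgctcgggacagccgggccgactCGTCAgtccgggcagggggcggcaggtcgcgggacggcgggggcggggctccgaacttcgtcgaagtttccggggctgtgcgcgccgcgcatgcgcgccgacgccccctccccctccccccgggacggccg
In Spata7 the palindrome runs over the start itself, from base -7 to base 1, and in the others the core begins 56 to 121 bases before the start of the printed window's gene (at -56 in Spata18, -68 in Spata32, -58 in Tex50 and -121 in Spata1). Spata1 has another start whose window overlaps the printed one and holds the same core at -161, so this site counts in both windows. Neither Tex101 nor Tex19.1 held the core in its window, as was true of Spata20, Tex26, Tex33, Tex35, Tex44 and Tex52.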

How the data were processed

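The authors deposited 1 linear intensity per probe and array. Per the labels' protocols, RNA was amplified, coupled to Cy5 and hybridised with 1 sample per array. How the authors scanned, corrected and scaled the arrays, and when a cell was left blank, is not given in the sources used here. Array medians were 30 on 5 arrays and 20.8 on IgG array 2. Symbols came from the platform annotation (16631 of 23473 probes) and were updated through RefSeq synonyms (GRCm38.p6). The deposited table names no genome build.

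The log2 of each intensity was taken and the median of the array subtracted. All probes of the 6 arrays were fitted in 1 model by limma 3.58.1 (R 4.3.3, functions lmFit and eBayes), with 3 residual and 5.77 prior degrees of freedom. A contrast was tested where all 4 arrays of its groups were listed. The p-values were adjusted by Benjamini-Hochberg across every probe tested, with a threshold of 0.05. Tables and plots were made with pandas 2.3.3 and matplotlib 3.10.9. The fit was also run on simulated data in which every probe had the same independent noise. That setting is simpler than these arrays and does not test the calls made here. The number of arrays limits the precision. The members and lists were chosen with earlier results of these data known. Protocol text on a different sample type was disregarded. Named members are those past the threshold, the 6 largest and 6 smallest values of each contrast, those with a blank or a disagreeing probe, and any on a role list, with partner genes past the threshold and the next 4 by size. Other members, and Syce2 among the partners, are named after their values were seen. Alternatives were other scalings, filters, an offset, other fits, a replicate block and leaving out each array.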

Additional observations from a re-analysis of the deposited data

How the results depend on the processing

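All 13 members called between the precipitates kept their direction under each of the 16 alternatives, and all 13 were still called with quantile normalization, centring on the 75th percentile, with the dimmest 25% of probes removed, an added offset of 4, only probes listed on all 6 arrays, 1 probe per gene, a variance trend, and the replicate block. With no centring 9 of the 13 stayed, and the counts were 10 higher and 0 lower, with a median of 0.82. Members called lower numbered 4 without the dimmest 25% of probes and 4 with a variance trend. With only the 4 arrays compared, 0 were higher and 0 lower. Leaving out 1 array gave 0 to 8 higher and 0 to 2 lower, with medians of 0.44 to 0.56. Of all probes 824 were higher and 895 lower, against 702 and 121 with no centring, 1492 and 1624 without the dimmest 25%, 1454 and 1501 with an offset, 1507 and 1636 under a variance trend, and 0 to 593 and 0 to 819 when 1 array was left out. The cause of these changes was not tested.

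Against total RNA, members higher with MVH numbered 1 once the dimmest 25% were removed, 1 with an offset, 1 under a variance trend and 0 when any 1 array was left out. Members lower with IgG numbered 2 with centring on the 75th percentile, 8 without the dimmest 25%, 10 with an offset, 3 with probes listed on all 6 arrays, 10 under a variance trend and 1 with the replicate block, and 0 to 1 when 1 array was left out. Of all probes 61, 410, 421, 125, 455 and 27 were lower under these settings in the same order up to the replicate block. Members higher with IgG numbered 2 without the dimmest 25%, 1 with an offset and 2 under a variance trend, beside 773, 666 and 798 of all probes. Member probes with both MVH arrays below all others numbered 1 with no centring and 5 with quantile normalization. In a count added after seeing the data they numbered 3 to 6 when 1 array was left out. Leaving out an array can only keep or raise that count, so it is no check of it.

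Arrays with the same number correlated in their deviations at 0.101 to 0.157 over 21241 probes, but with 2 numbers and no label that ties them this does not show a pairing. The fit with the replicate block gave 14 members higher and 3 lower between the precipitates (1102 and 1165 of all probes). The members added were Spata4, Spata6 and Spata19, higher, and Spata2, lower.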

Other observations

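Related members on the array did not move alike in the point estimates. Between the precipitates Spata2 had a log2 difference of -1.09 ± 0.37 and its relative Spata2l one of 0.72 ± 0.38, neither past the threshold (limma adjusted p = 0.104 and 0.278). Spata2l was dim, at 29.3 and 14.3 on the MVH arrays, 14.6 and 10.53 on the IgG arrays and 15.1 and 11.9 on those of total RNA. Tex19.2 read 265 and 201 on the MVH arrays, 351 and 159 on the IgG arrays and 218 and 205 on those of total RNA, and its IgG arrays differed by more than its groups did. The differences between these relatives were not tested.

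Brightness and the difference between the precipitates were nearly unrelated. Spearman's rho was 0.04 across the 55 member probes and -0.02 across all probes, which share the same arrays. One bright member with a difference near 0 was Tex261, at 6774 and 7587 on the MVH arrays, 7556 and 6627 on the IgG arrays and 6616 and 7679 on those of total RNA.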
